A study of Mus musculus with 12 samples.

Results

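A clone of NIH-3T3 cells labelled as a U17 knockdown was compared with unmodified cells of the same line, called WT in the labels, over all genes that the arrays measured. The comparison took in every array of both groups, 4 of the knockdown clone (U17_KD) and 4 of WT, 8 of the 12 arrays of the series. NIH-3T3 is an immortalised line of mouse embryonic fibroblasts. The knockdown cells carry the construct ShSnhg3 as a stable clone, a name that stands for a short hairpin against Snhg3. The remaining 4 arrays are of a stable clone made with pMDβglobinU17b and labelled as overexpressing U17 (U17_OE). All 3 groups, WT included, had grown for 24 hours in LPDS medium, which holds lipoprotein-deficient serum and so offers the cells little external cholesterol. Each manipulated group is 1 clone, and no clone with a control hairpin was analysed here, so that the level of U17 and whatever else is particular to the clone cannot be told apart.

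U17 is a small nucleolar RNA of the H/ACA box family. Most members of that family guide the conversion of uridine to pseudouridine in ribosomal RNA, whereas U17 is known for a part in the early cleavages of the ribosomal RNA precursor. It is spliced out of the introns of its host transcript Snhg3, which lies next to Rcc1, the gene of the exchange factor of the GTPase Ran. In fibroblasts U17 has also been linked to the traffic of cholesterol, with the mitochondrial protein Mgarp (HUMMR) as a target.

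Total RNA, copied from oligo-dT primers, was measured on Illumina bead arrays with 45281 probes. A probe was taken as detected at a normalized intensity of at least 30.5, and 15820 to 15832 probes reached that level on each of the 8 arrays. The deposited values were already normalized, with medians of 7.96 to 7.99 on the 12 arrays, so the even counts carry little information. By detection p-values under 0.05, 15140 to 16182 probes passed on the WT arrays. The 16706 probes detected on at least 4 of the 12 arrays were tested, and 9108 genes were each represented by 1 probe. Over these probes the correlation of log2 values was 0.990 to 0.995 between arrays of a group (12 pairs) and 0.966 to 0.971 between the groups (16 pairs). The labels call the arrays biological replicates, and nothing says how the cultures were kept apart, so the p-values measure the spread between these arrays. The levels are of bulk cultures, in which fewer cells of a kind and less RNA per cell cannot be told apart.

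Neither U17 nor Snhg3 could be checked, since 0 probes are named Snhg3, Snora73a or Snora73b. Rcc1 was lower in the knockdown clone, with intensities of 778, 598, 740 and 815 on the 4 WT arrays and 380, 380, 383 and 362 on the 4 knockdown arrays, and all WT arrays lay above all knockdown arrays. Mgarp was higher, with 136 to 205 in WT and 531 to 635 in the knockdown clone. Of 17 fibroblast markers, 15 were measured and all 15 were detected on every WT array, 14 of them on every knockdown array. The summed intensity of these markers was 72320 to 82870 in WT and 85200 to 90780 in the knockdown clone, with Col1a1, Col3a1 and Pdgfrb among 9 that were higher and Lum and Dcn the 2 that were lower (1 of the 2 other tested probes of Dcn was not called). Of markers of other cell types, 3 of 12 macrophage and leukocyte genes were measured and 0 changed, with summed intensities of 443.8 to 558.7 in WT and 521.9 to 542.3 in the knockdown clone. Of 12 epithelial and keratinocyte genes 5 were measured and 4 were lower, the sum going from 887.3 to 1085 in WT to 159.9 to 239.4. The endothelial list (3 of 10 measured, 2 higher) went from 122.0 to 176.4 up to 1971 to 2240. Most of these sums was Ly6c1, a leading rise described below, at 93.9 to 114 in WT and 1852 to 2127 in the knockdown clone. The adipocyte list (3 of 10 measured, 2 higher) went from 745.8 to 995.7 up to 2708 to 3189. Such sums weigh the brightest gene of a list most. Smooth and skeletal muscle genes (4 of 11 measured, 2 lower) went from 26560 to 28720 down to 13740 to 15340. Of 15 neural, glial and melanocyte genes 1 was measured and was lower, and of 11 bone and cartilage genes 3 were measured and 0 changed. On no array were 8 of the macrophage, 7 of the epithelial, 7 of the endothelial, 6 of the adipocyte and 6 of the muscle genes detected. The same held for 11 of the neural, glial and melanocyte and 6 of the bone and cartilage genes. These counts can be read against the shares over all 9108 genes, 20% higher and 20.4% lower by the test given next. The part of other cell types in the results was not tested.

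By limma, 37.3% of the probes differed between the knockdown clone and WT at an adjusted p under 0.05 (6237 of 16706). Per gene the share was 40.5%, with 1823 of the 9108 genes higher in the knockdown clone (20%) and 1862 lower (20.4%). The median size of the difference was 0.53 on the log2 scale over the called genes and 0.25 over all genes, whose median signed difference was -0.02. A change of at least 2-fold was reached by 318 higher and 181 lower genes. Counts of list members given from here on can be read against the shares of 20% higher and 20.4% lower.

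Genes with signal in a single group were set out first. Detected on 4 of 4 knockdown arrays and on 0 of 4 WT arrays were 93 genes, and 63 genes were detected in WT only. By construction such genes differ, and the limma call held for 92 of the 93 and 59 of the 63. Most had low levels in the group that expressed them, with a median intensity of 56.0 among the 93 in the knockdown clone and 70.9 among the 63 in WT. Since the dim group gives only a bound, each change is stated as at least N-fold, against the lowest detected signal of each array. On this scale 30 of the 93 and 30 of the 63 differed at least 2-fold, and 5 and 10 at least 4-fold.

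The strongest of the genes switched on was Lmcd1, whose LIM and cysteine-rich domain protein binds GATA6 and restrains it. Its intensity was 9.70, 2.17, -3.41 and 9.48 on the WT arrays and 501, 461, 543 and 512 on the knockdown arrays. The groups were separated by a wide gap, a change of at least 11.1-fold (adjusted p = 4.97e-14), and its 2 other tested probes were called in the same direction. Gata6 itself, a zinc finger factor of mesoderm and endoderm, was lower in the knockdown clone, at 109 ± 18.6 (SD, n = 4) against 233 ± 57.2. Brinp3, of a family of secreted inhibitors of neuronal proliferation, read 7.64, 2.88, 3.91 and -5.69 in WT and 409, 399, 445 and 381 in the knockdown clone (at least 9.06-fold). All 4 U17_OE arrays lay below 0 for Brinp3, so its signal was found in the knockdown clone and in neither other group. Akr1c12, an aldo-keto reductase of steroid metabolism, read 17.8, 0.539, 21.6 and -4.59 in WT and 274, 310, 240 and 308 in the knockdown clone (at least 6.35-fold). For Akr1c12 the U17_OE arrays lay between, at 86.8 to 107, above every WT array and below every knockdown array.

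Other genes switched on were Tmem176b, a membrane protein of immune cells (at least 5.75-fold), Apol9a, an apolipoprotein L gene (4.03-fold), and Sod3, the superoxide dismutase that cells secrete (3.88-fold). They were followed by Nrep, a regulator of TGF-beta signalling and regeneration (3.74-fold), the cyclic nucleotide phosphodiesterase Pde1a (3.10-fold), and Mapk12, which encodes the kinase p38 gamma (3.09-fold). Limch1, an activator of non-muscle myosin (3.07-fold), the small GTPase Diras2 (3.02-fold) and Nhsl1 (2.82-fold) completed the first 12. Of these 12, Akr1c12, Tmem176b (146 to 179), Sod3 (76.0 to 125), Apol9a (31.2 to 52.1) and Diras2 (34.9 to 44.3) were detected on 4 of 4 U17_OE arrays. Lmcd1 was detected on 3, Nrep and Mapk12 on 1 each, and Brinp3, Pde1a, Limch1 and Nhsl1 on 0. Further down the list stood the enzyme Hsd11b1, which regenerates active glucocorticoid from its inert form (at least 2.53-fold), the receptor Gpr35 (1.74-fold), the secreted, adiponectin-related C1qtnf1 (1.69-fold) and the secreted protease inhibitor Slpi (1.57-fold).

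Snurf led the genes switched off by this rule, with 0 of 4 knockdown arrays detected. Its transcript is shared with Snrpn, comes from the paternal chromosome only, and is a classic case of genomic imprinting. The WT arrays gave 549, 423, 435 and 497 and the knockdown arrays -3.57, -8.10, -3.67 and 9.98, a change of at least 10.5-fold (adjusted p = 2.79e-14) that its 2 other tested probes shared in call and direction. The U17_OE arrays, at 347 to 471, lay close to the WT range. Smoc1, a secreted calcium-binding matrix protein that antagonises BMP signalling, read 497, 433, 457 and 467 in WT and -15.8, -7.33, -11.4 and 9.93 in the knockdown clone (at least 10.2-fold lower). The embryonic globin probe Hbb-bh1 read 457, 403, 445 and 550 against 5.70, 5.87, 12.6 and 11.5 (at least 10.2-fold lower). For Smoc1 and Hbb-bh1 the knockdown arrays sat at background and the U17_OE arrays below WT but well detected. Bnc1, named after its value was seen, missed the rule because 1 of 4 knockdown arrays reached detection. Its mean went from 556 in WT to 16.3 in the knockdown clone, at least 12.2-fold lower and so a larger bound than that of Snurf.

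Msln, the surface protein mesothelin of mesothelial cells (at least 5.85-fold lower), and Havcr2, the inhibitory receptor TIM-3 of lymphocytes (5.75-fold), were switched off too. So were the nucleotide hydrolase Nudt16 (4.46-fold), Slc40a1, the iron exporter ferroportin (4.39-fold), and Rab27a, a GTPase of secretory vesicle transport (4.28-fold). Tmem185b (4.21-fold), the galactose mutarotase Galm (4.05-fold), the lipoprotein receptor Vldlr (3.62-fold) and the membrane-anchored semaphorin Sema7a (3.46-fold) completed the 12. Has2, a synthase of hyaluronan (at least 3.03-fold), the adhesion molecule Alcam (2.52-fold) and Tgfbi, a matrix protein induced by TGF-beta (2.43-fold), fell below detection as well. Among them Tgfbi was undetected on all 4 U17_OE arrays as well, which read -36.6 to -17.1.

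**Figure D1:**
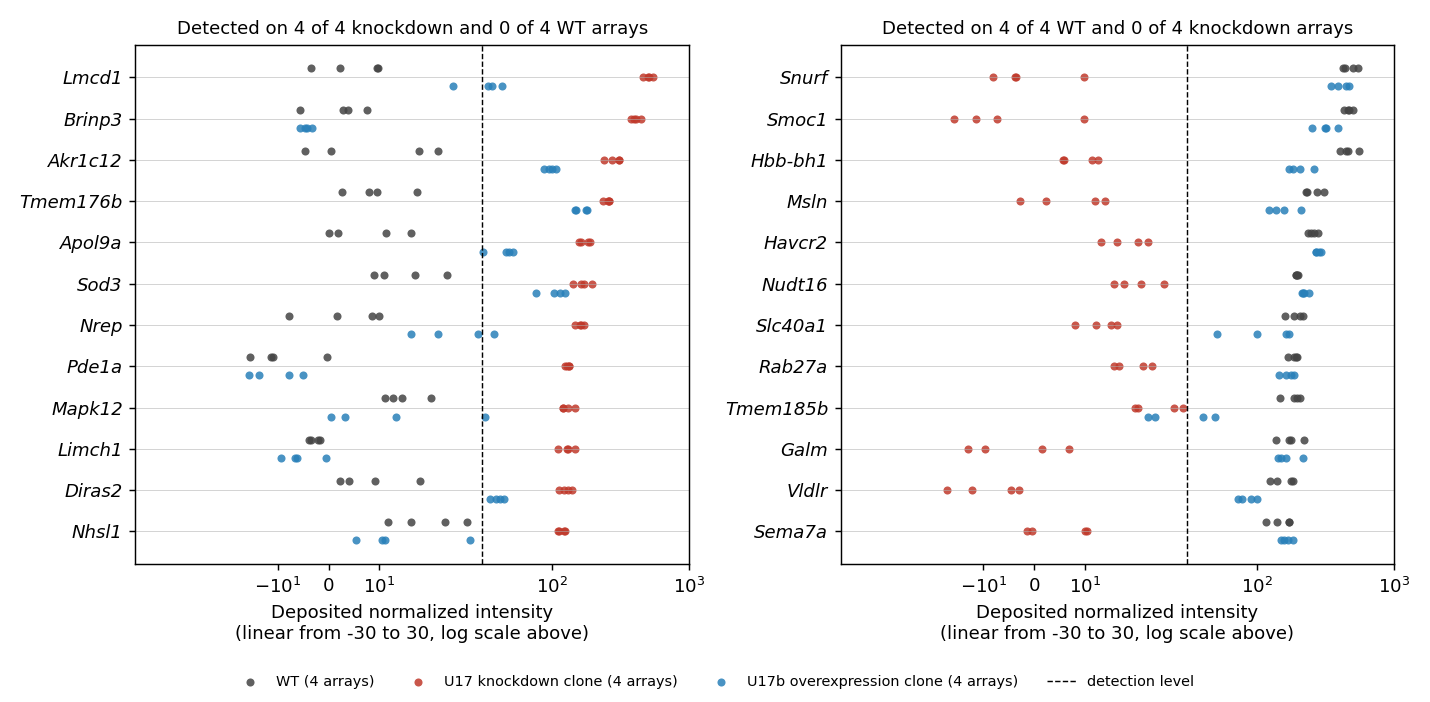
Deposited normalized intensity on each array for the 12 genes with the largest change among those detected in the knockdown clone and not in WT (left) and the reverse (right); the axis is linear near 0 and logarithmic above 30, and the dashed line is the detection level of 30.5. All 4 knockdown points of Lmcd1 lie between 461 and 543 with every WT point below 10, and for Snurf the WT points lie between 423 and 549.

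In the U17_OE clone, 46 of the 93 genes switched on were undetected on all 4 U17_OE arrays and 11 were detected on all 4, whereas of the 63 switched off, 31 were detected on all 4 U17_OE arrays and 10 on 0. These counts describe the U17_OE arrays and were not tested.

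The stretch of DNA around the transcription start is shown for the first 2 genes of each direction with an entry among RefSeq's promoters (assembly GRCm38.p6), because silent and active states of a gene often go with the density of CpG dinucleotides there. Each runs from 250 bases before to 50 bases after the start, 5′ to 3′ on the gene's own strand, and capitals mark every CpG. The window of Lmcd1 is chr6:112273508-112273807 on the plus strand, that of Brinp3 chr1:146495379-146495678 on the plus strand, that of Snurf chr7:60005150-60005449 on the minus strand and that of Havcr2 chr11:46454681-46454980 on the plus strand.
Lmcd1: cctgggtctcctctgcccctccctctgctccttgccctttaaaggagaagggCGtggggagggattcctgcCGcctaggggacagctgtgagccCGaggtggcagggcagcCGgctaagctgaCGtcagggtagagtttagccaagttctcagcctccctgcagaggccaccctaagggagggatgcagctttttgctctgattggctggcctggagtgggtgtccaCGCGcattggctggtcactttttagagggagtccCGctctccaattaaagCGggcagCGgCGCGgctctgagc
Brinp3: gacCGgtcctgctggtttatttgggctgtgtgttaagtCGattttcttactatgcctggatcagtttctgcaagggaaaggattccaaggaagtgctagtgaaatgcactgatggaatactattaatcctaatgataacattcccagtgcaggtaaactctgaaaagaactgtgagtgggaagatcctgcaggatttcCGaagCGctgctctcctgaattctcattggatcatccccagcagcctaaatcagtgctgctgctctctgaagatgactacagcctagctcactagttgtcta
Snurf: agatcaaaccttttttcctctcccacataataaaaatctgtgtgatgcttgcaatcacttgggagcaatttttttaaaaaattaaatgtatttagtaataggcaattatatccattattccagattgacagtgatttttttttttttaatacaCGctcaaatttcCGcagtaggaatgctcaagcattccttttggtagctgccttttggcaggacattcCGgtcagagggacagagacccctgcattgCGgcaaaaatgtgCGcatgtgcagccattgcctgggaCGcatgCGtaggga
Havcr2: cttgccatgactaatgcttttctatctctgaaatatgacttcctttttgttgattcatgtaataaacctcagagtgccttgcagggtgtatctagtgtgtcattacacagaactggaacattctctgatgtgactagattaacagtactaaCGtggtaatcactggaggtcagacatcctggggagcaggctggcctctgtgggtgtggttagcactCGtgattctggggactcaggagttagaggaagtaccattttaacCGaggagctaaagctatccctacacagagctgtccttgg
Lmcd1 has 12 CpG dinucleotides in this window, Brinp3 has 4, Snurf 7 and Havcr2 3. Windows were counted for 7455 of the 9108 measured genes, with a median of 21. Left out were genes without an entry and those with promoters on a chromosome that was not used for windows. Each gene has 1 start, also where several are listed, such as the 3 of Brinp3. The median was 7 over the 67 of the 93 genes switched on that were counted and 14 over the 48 of the 63 switched off. Genes of low level have fewer CpG in general, with a median of 17 over the 1628 counted genes whose mean intensity was under 100 in both groups. At least 10 CpG were found in 38.8% of the windows of genes switched on, 64.6% of those switched off, 69.0% of the low-level genes and 84.0% of all. The letters TGANTCA, with N for any base, read alike on both strands apart from the middle base. With C or G in the middle they form the site of the AP-1 factors, so the count is wider than that site. They occurred in 9 of the 67 windows of genes switched on (13.4%), 3 of the 48 of genes switched off (6.25%), 7.25% of the low-level genes and 5.04% of all. These shares are descriptions of a window of fixed length, and methylation was not measured.

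Among genes detected on all 8 arrays, the rises were led by Ly6c1, a GPI-anchored surface antigen found on endothelial and myeloid cells. Its intensity was 114, 96.8, 102 and 93.9 in WT and 2127, 2000, 1852 and 1914 in the knockdown clone (a log2 fold change of 4.09 ± 0.10, SE, with an adjusted p of 2.06e-15). The secreted glycoprotein Olfm1, known from the nervous system, read 70.6, 101, 56.5 and 58.4 against 1305, 1291, 1560 and 1351 (4.03 ± 0.14). Gpnmb, which codes for a membrane protein of melanosomes and lysosomes, was already bright in WT at 1514, 1370, 1549 and 1718 and reached 20256, 19526, 20537 and 19123 (3.68 ± 0.10). In none of the 3 did any array of one group come near the other group. The U17_OE arrays lay between the groups, at 301 to 380 for Ly6c1 and 6353 to 9499 for Gpnmb.

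Next came Gm773 (3.56 ± 0.20), the soluble pattern receptor Ptx3 (3.46 ± 0.17), the water channel Aqp5 (3.18 ± 0.11) and Slc1a3, the glutamate transporter of astrocytes (3.08 ± 0.10). Slc1a3 had intensities of 937 ± 90.6 (SD, n = 4) in WT and 8005 ± 413 in the knockdown clone. The zinc finger homeobox gene Tshz3 (2.91 ± 0.12), the coactivator Ppargc1a of mitochondrial biogenesis (2.83 ± 0.14), the X-linked homeobox gene Rhox5 (2.80 ± 0.10), the small proteoglycan Ogn (2.76 ± 0.16) and Tmem119 (2.52 ± 0.13), a marker of microglia that also acts in bone formation, made up the rest of the 12. In U17_OE the difference from WT was -0.08 for Rhox5 (adjusted p = 0.658) and -0.40 for Ogn (adjusted p = 0.134). Gm773, Ptx3 and Tshz3 were not called between U17_OE and WT either. Called higher in U17_OE than in WT were Ppargc1a (1.25), Aqp5 (1.11), Tmem119 (0.74) and Slc1a3 (0.60). The same held for Ly6c1 (1.62), Olfm1 (1.61) and Gpnmb (2.40). All 12 leading rises were higher in the knockdown clone than in U17_OE.

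Renbp, the epimerase that turns N-acetylglucosamine into N-acetylmannosamine, had the deepest fall. It read 2234, 1810, 1911 and 2002 in WT and 76.8, 104, 78.0 and 125 in the knockdown clone (-4.19 ± 0.12, adjusted p = 1.08e-14), while U17_OE stood at 2370 to 2561. Igf2, the imprinted fetal growth factor, read 2779, 2670, 2700 and 2429 against 333, 314, 273 and 319 (-3.04 ± 0.09). U17_OE was also low in Igf2, at 526 to 636, so for this gene, as for others given below, both clones lay below WT. Cpne8, a calcium-dependent membrane-binding copine, read 1254, 1185, 1068 and 1259 against 194, 211, 174 and 228 (-2.48 ± 0.11).

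The ERK phosphatase Dusp5 (-2.44 ± 0.12), Klra4, of the Ly49 family of lectin-type receptors (-2.41 ± 0.17), Atg9b, which acts in autophagy (-2.30 ± 0.14), and corneodesmosin, Cdsn (-2.29 ± 0.12), followed. Ercc1, a subunit of the nuclease of nucleotide excision repair, went from 4617 ± 415 to 941 ± 77.9 (SD, n = 4), a log2 fold change of -2.28 ± 0.12. The teneurin Tenm4 (-2.26 ± 0.13), the protocadherin Pcdh7 (-2.23 ± 0.20), Rgs16, which ends signals of G proteins (-2.04 ± 0.14), and the kinesin adaptor Fez1 (-1.97 ± 0.09) completed the 12. Besides Igf2, U17_OE was called lower than WT for Klra4 (-1.60), Rgs16 (-1.40), Dusp5 (-1.14), Pcdh7 (-0.69), Ercc1 (-0.41), Cpne8 (-0.39) and Cdsn (-0.39). It was called higher than WT for Tenm4 (0.63) and Fez1 (0.60), and Renbp and Atg9b were not called. All 12 leading falls were lower in the knockdown clone than in U17_OE.

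**Figure D2:**
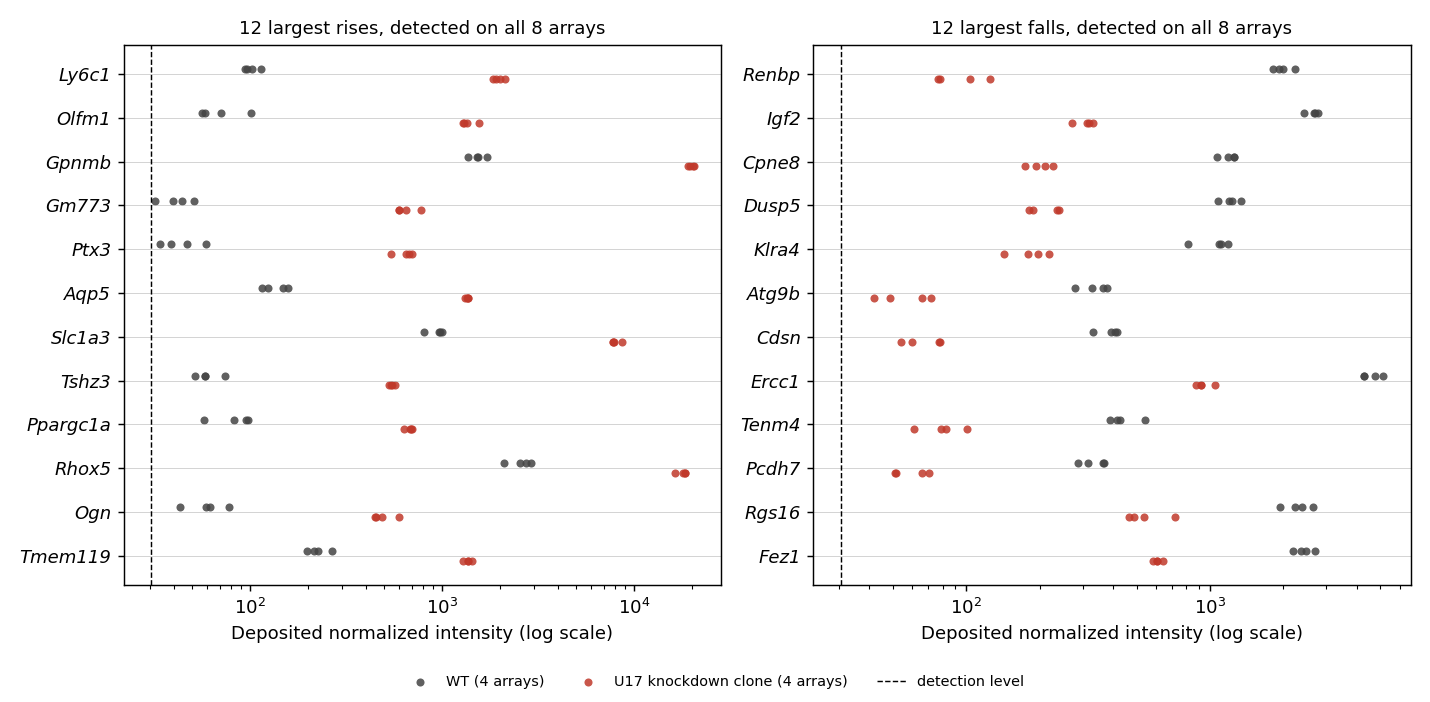
Deposited normalized intensity (log scale) of each WT and knockdown array for the 12 genes with the largest rise and the 12 with the largest fall among those detected on all 8 arrays; the dashed line is the detection level. The groups are separate for every gene shown, from Ly6c1 at 93.9 to 114 in WT and 1852 to 2127 in the knockdown clone to Fez1, with means of 2430 and 608.

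In 8 of the 10 lists of secreted proteins more genes were higher in the knockdown clone than lower. Collagens form the fibres, basement membranes and filaments of the matrix. Of the 16 measured genes in the list of collagens 12 were higher in the knockdown clone and 1 was lower. Their median log2 fold change was 1.00 against -0.02 over all genes. Col1a1, a chain of type I collagen, read 1830, 1486, 1142 and 1855 in WT and 4590, 4881, 5216 and 4883 in the knockdown clone, without overlap (1.65 ± 0.17, adjusted p = 5.39e-07). Col3a1 rose by 1.46 ± 0.23 and Col6a2 by 1.17 ± 0.17. The other chain of type I collagen, Col1a2, rose less (0.49). Col8a1, a short-chain collagen, was the 1 of the list that fell, by 0.37, and its other tested probe was not called. Averaged over both probes it differed by -0.22 (adjusted p = 0.209).

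Matricellular and matrix glycoproteins moved both ways, 18 of 40 higher and 11 lower. Srpx2, a secreted sushi-repeat protein that promotes migration and synapse formation, read 41.3, 34.3, 55.9 and 20.8 in WT and 853, 797, 819 and 808 in the knockdown clone (3.98 ± 0.14, with 3 of 4 WT arrays detected). Ltbp4, which binds latent TGF-beta in the matrix, read 204, 244, 198 and 198 against 32.5, 22.8, 11.8 and 23.3 (at least 4.78-fold lower). Of the knockdown arrays 1 reached detection for Ltbp4 and all WT arrays did. Of these 40 genes, Fbln2 has another tested probe called the opposite way, so its direction is uncertain.

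Among proteases of the matrix and related proteins, not all of them active proteases, 10 of 22 were higher and 3 lower. Adamts9, a metalloproteinase that cleaves proteoglycans, read 27.4, 5.48, 33.5 and 17 in WT and 312, 256, 292 and 300 in the knockdown clone. With 1 of 4 WT arrays detected and their mean below the detection level, the change is given as at least 6.44-fold, by the bound used above. Adam23, whose protein lacks protease activity and binds integrins, rose by 2.50 ± 0.11, and Plat, the tissue plasminogen activator, by 1.41 ± 0.09. The ADAMTS-like protein gene Adamtsl4 fell by 0.93, Htra1 by 0.84 and the lysosomal protease Ctsl by 0.76. Secreted protease inhibitors and acute-phase proteins rose in 9 of 13 and fell in 2. Next to Ptx3 these were Timp3, the inhibitor bound to the matrix (1.53 ± 0.09, its other tested probe not called), and Slpi. The falls were Timp1 (-0.32) and Serpinb6a (-0.61), whose other tested probe was not called and had the opposite sign (0.11).

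Complement genes were higher in 7 of 11 and lower in 2. C1s1, a protease of the first complement component, was detected on 1 of 4 WT and 4 of 4 knockdown arrays (at least 4.11-fold higher), and Masp1, a protease of the lectin pathway, rose by 1.78 ± 0.09. Cd55, which protects cells from complement, was detected on 4 of 4 WT and 0 of 4 knockdown arrays (at least 1.53-fold lower). C4b was also lower (-0.48, adjusted p = 0.0272), and with each chromosome centred, an alternative described with the chromosomes, its difference was -0.19 (adjusted p = 0.411). Its call was also lost without WT replicate 4 (-0.39, adjusted p = 0.0906), U17_KD replicate 1 (-0.45, adjusted p = 0.0695) or U17_KD replicate 3 (-0.48, adjusted p = 0.055), each of which left 1 lower gene in the list.

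Of 30 measured secreted growth factors 15 were higher and 6 lower. Angpt1, the ligand that activates the endothelial receptor TIE2, read 18.7, 29.8, 46.9 and 40.7 in WT and 246, 259, 314 and 221 in the knockdown clone (2.46 ± 0.16, with 2 of 4 WT arrays detected). Gas6, the ligand of the receptors TYRO3, AXL and MERTK, read 191, 203, 172 and 164 against 894, 842, 881 and 806 (2.14 ± 0.11), and the heparin-binding growth factor Ptn rose by 2.01 ± 0.09. Of its receptors, Axl fell by 0.80 ± 0.07, with its other tested probe not called, and Mertk, which reached detection on 1 of 4 knockdown arrays, was at least 2.03-fold lower. The difference of Tyro3 was -0.01 (adjusted p = 0.977). Igf1, chosen after its value was seen and detected on 3 of 4 WT arrays with a mean below the detection level, was at least 3.00-fold higher while Igf2 fell. Besides Igf2, the falls were led by Hbegf, a ligand of the EGF receptor (-1.78 ± 0.14), and Angptl4, an inhibitor of lipoprotein lipase (-1.23 ± 0.08). Its target Lpl rose by 1.61 ± 0.15.

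Chemokines and cytokines were higher in 7 of 19 and lower in 4. The rises were led by chemokines that attract monocytes, Ccl9 (2.12 ± 0.15), Ccl8 and Ccl7 (1.70 ± 0.08). Ccl8 was detected on 1 of 4 WT arrays and was at least 3.15-fold higher in the knockdown clone. The falls were led by cytokines of the IL-6 family, Il11 (-1.46 ± 0.15) and Clcf1 (-0.89 ± 0.12). Of the Wnt ligands and secreted antagonists only 4 of 28 were measured. The antagonist Dkk3, detected on 3 of 4 knockdown arrays, fell by 2.25 ± 0.15 and Sfrp1 by 0.89 ± 0.15. Dkk3 read 219 to 251 in WT, 24.9 to 43.5 in the knockdown clone and 252 to 402 in U17_OE. Sfrp1 read 112 to 153, 45.9 to 80.0 and 204 to 298, so that for both genes the U17_OE arrays lay above the other groups.

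Semaphorins, netrins, slits and ephrin ligands, the cues of axon guidance, were higher in 3 of 17 and lower in 5, with Slit3 up by 1.01 ± 0.16 and Sema3a down by 1.17 ± 0.16 (3 of 4 knockdown arrays detected). BMP, activin and GDF ligands with their antagonists were higher in 4 of 9 and lower in 1. The activin subunit Inhba fell by 0.58 ± 0.09, and the largest rise, of Bmp1, was 0.41 ± 0.09 (2 of its 3 other tested probes not called). Without WT replicate 1, U17_KD replicate 2 or U17_KD replicate 4 the higher genes numbered 2.

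Receptors followed. Growth factor receptor tyrosine kinases were higher in 11 of 24 and lower in 4. The receptors of platelet-derived growth factor rose, Pdgfrb by 1.07 ± 0.20 and Pdgfra by 0.71 ± 0.12, although the other tested probe of Pdgfra was not called and its mean over both probes differed by 0.31 (adjusted p = 0.0534). Fgfr1 rose by 0.93 ± 0.17 and the ephrin receptor Epha2 fell by 0.79 ± 0.11.

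Receptors of cytokines and of the TNF family were higher in 10 of 26 and lower in 3. Il13ra1, a subunit shared by the IL-4 and IL-13 receptors, read 66.7, 75.4, 101 and 85.7 in WT and 382, 342, 390 and 378 in the knockdown clone (2.01 ± 0.12). The death receptor Fas rose by 2.00 ± 0.12 and Ghr, the growth hormone receptor, by 1.32 ± 0.12. Tnfrsf21, also known as death receptor 6, read 209, 245, 196 and 200 in WT and 39.3, 20.5, 25.8 and 29.9 in the knockdown clone, where 1 array reached detection (at least 4.67-fold lower). Tnfrsf12a, the receptor of the cytokine TWEAK, fell from 13596 ± 521 to 6724 ± 276 (SD, n = 4).

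Of 33 genes in the list of G protein-coupled receptors, which also holds the natriuretic peptide receptor Npr3, 11 were higher and 6 lower. Mrgprf rose by 2.39 ± 0.12 and Gpr176, a receptor of the circadian clock centre in the brain, by 1.19 ± 0.14. Npr3, which clears natriuretic peptides from the circulation, fell by 1.83 ± 0.13 (3 of 4 knockdown arrays detected), and the log2 fold change of Gprc5a, a receptor induced by retinoic acid, was -1.49 ± 0.13. Gpr149 fell by 1.74 ± 0.23, with its other tested probe not called.

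Integrins were higher in 3 of 10 and lower in 3. Itga11, the collagen-binding alpha subunit of fibroblasts, went from 17.7 ± 11.8, detected on 1 of 4 arrays, to 234 ± 29.2 (SD, n = 4), a change of at least 5.28-fold, and was undetected on all 4 U17_OE arrays. Itgb7, a beta subunit otherwise known from lymphocytes, fell by 1.96 ± 0.12, and the fibronectin receptor subunit Itga5 by 0.49 ± 0.10. The list of cadherins and immunoglobulin adhesion molecules, which also holds the glypican Gpc1 and Flrt2, was higher in 14 of 35 and lower in 8. Gpc1 rose from 8430 ± 414 to 21462 ± 255 (1.35 ± 0.08) and Flrt2 fell by 1.82 ± 0.16. Ion channels were higher in 7 of 27 and lower in 8. The ATP-gated channel P2rx4 rose by 1.61 ± 0.12 and its relative P2rx5 went from 74.9 ± 15.7 to 238 ± 16.2 (SD, n = 4), and the calcium-activated potassium channel Kcnn4 fell by 1.45 ± 0.12. Receptors of the TGF-beta family were called in 2 of 8, Tgfbr2 (0.56 ± 0.09) and Tgfbr3 (0.31 ± 0.09). With each chromosome centred Tgfbr3 stood at 0.20 (adjusted p = 0.0911). Receptors of guidance cues with Notch receptors and ligands were higher in 5 of 13 and lower in 1, Dlk1 (-0.63 ± 0.06). Of the 5, Plxnb2 (0.44 ± 0.11) was at 0.17 with each chromosome centred (adjusted p = 0.266).

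**Figure D3:**
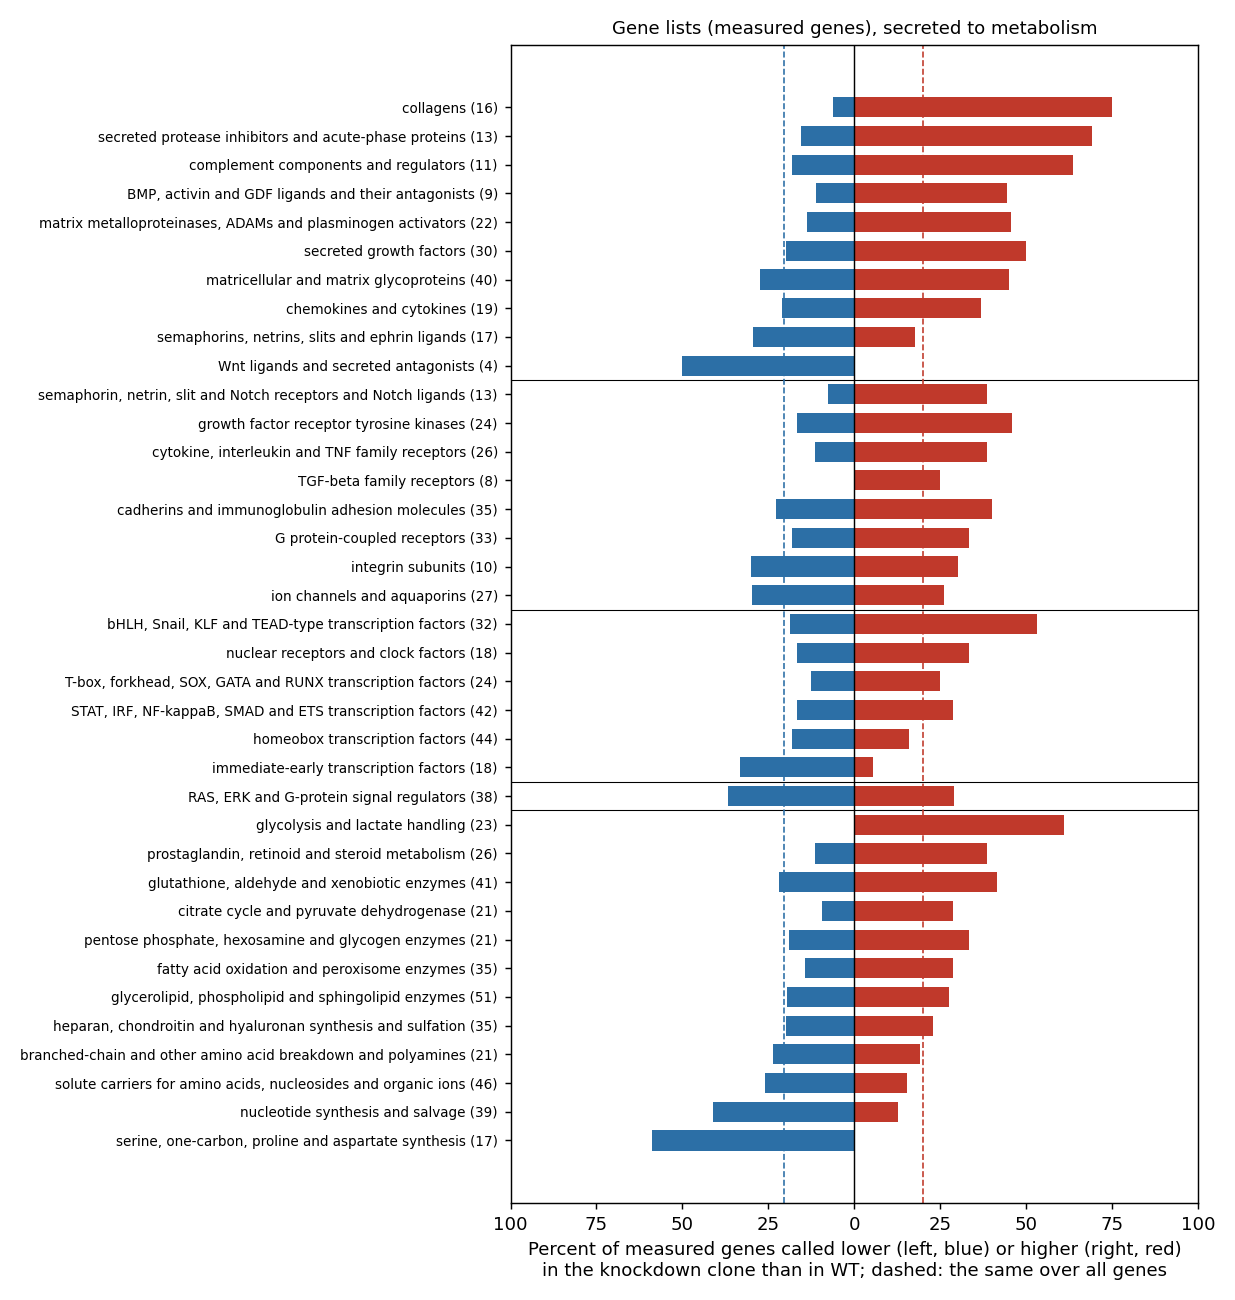
Share of the measured genes of each list, marker lists of cell types left out, called lower (to the left) and higher (to the right) in the knockdown clone than in WT, with the number of measured genes in brackets; dashed lines mark the shares over all genes, 20.4% lower and 20% higher. Collagens have the largest share of rises among the lists shown, 12 of 16, and the list of serine, one-carbon, proline and aspartate synthesis the largest share of falls among the lists shown, 10 of 17.

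Of the lists of transcription factors, that of the basic helix-loop-helix, Snail, KLF and TEAD types held the most rises, 17 of 32, with 6 falls and a median of 0.37. Id proteins are dominant-negative partners of basic helix-loop-helix factors and classic targets of BMP signalling. All 4 Id genes, set out here after their values were seen, were higher. Id1 read 795, 774, 701 and 856 in WT and 1326, 1363, 1506 and 1319 in the knockdown clone (0.81 ± 0.10). Id2 read 131 to 171 against 265 to 306 (0.86 ± 0.13), and Id3 read 118 to 203 against 302 to 493 (1.14 ± 0.16). Id4 was below the detection level on all WT arrays, at 25.2 to 28.0, and read 72.3 to 81.5 in the knockdown clone. For each Id gene the groups did not overlap, as was so for 40.6% of all tested probes. The largest rises of the list were those of Mxd4, a MYC antagonist (1.59 ± 0.10), and Snai2, a repressor of epithelial genes (1.33 ± 0.13). Mycl, of the MYC family, was detected on 4 of 4 WT and 0 of 4 knockdown arrays (at least 1.06-fold lower), but with all values under the detection level set to it the difference was -0.14 (adjusted p = 0.396). Tead4, a partner of YAP, fell by 0.80 ± 0.11.

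Immediate-early factors, the first genes to answer growth signals, were lower in 6 of 18 and higher in 1. Egr3 read 187, 164, 292 and 325 in WT and 87.2, 61.6, 75.6 and 72.0 in the knockdown clone (-1.48 ± 0.24), without overlap although its other tested probe was not called. Jun fell by 0.89 ± 0.11 and Ier3 by 0.84 ± 0.07. The flow-responsive Klf2 was the 1 that rose (0.86 ± 0.11), with 2 higher when U17_OE replicate 3 was left out. Etv5, an ETS factor induced by ERK signalling, fell by 1.06 ± 0.13. In the list of STAT, IRF, NF-kappaB, SMAD and ETS factors 12 of 42 were higher and 7 lower. Nfatc4 (1.20 ± 0.10), the Hedgehog effector Gli2 (1.06 ± 0.10) and the interferon factor Irf1 (1.05 ± 0.13) led the rises.

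RAS, ERK and G-protein signal regulators were lower in 14 of 38 and higher in 11. Dusp5, a nuclear phosphatase of ERK that ERK itself induces, read 1196, 1236, 1075 and 1338 in WT and 189, 181, 241 and 236 in the knockdown clone. Dusp1, which acts on p38 and JNK as well, went the other way, from 1984, 1841, 2286 and 2200 to 6135, 5665, 5228 and 5705 (1.45 ± 0.10, adjusted p = 2.07e-09). Rgs4 rose by 1.33 ± 0.15 while Rgs16 fell, so that members of the RGS family, which share the action of ending G protein signals, moved in both directions. Rasal2, a GTPase-activating protein of RAS, fell by 1.19 ± 0.10.

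The vitamin D receptor gene Vdr led the nuclear receptors and clock factors, of which 6 of 18 were higher and 3 lower. It read 105, 77.2, 99.2 and 126 in WT and 496, 469, 507 and 450 in the knockdown clone (2.10 ± 0.15), with U17_OE between at 163 to 279. The period genes Per2 (1.15 ± 0.17) and Per1 (1.02 ± 0.12) of the circadian clock rose. Nr1d1, the clock repressor REV-ERB alpha, was detected on 4 of 4 WT and 0 of 4 knockdown arrays (at least 1.70-fold lower), and the clock repressor Ciart fell by 0.91 ± 0.12. Rxrb was lower by 0.30 ± 0.08, but with each chromosome centred its difference was -0.01 (adjusted p = 0.943).

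Homeobox genes stayed close to the shares over all genes, with 7 of 44 higher and 8 lower. Next to Tshz3, Otx1 rose by 1.14 ± 0.12 and Hoxc6 by 1.14 ± 0.12, and the neighbours Dlx1 (-0.96 ± 0.11) and Dlx2 fell, the latter to below detection on 4 of 4 arrays. Of T-box, forkhead, SOX, GATA and RUNX factors 6 of 24 were higher, among them Foxc1 (1.28 ± 0.11), Sox5 (1.00 ± 0.11) and Foxf1, and 3 were lower.

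Among the metabolic lists, that of glycolysis held called rises and 0 falls, that of serine and one-carbon synthesis called falls and 0 rises, and that of nucleotide synthesis more falls than rises, with 7 to 18 genes of each not called. Of 23 genes of glycolysis and lactate handling 14 were higher in the knockdown clone and 0 were lower, with a median of 0.28. Pdk4, a kinase that shuts pyruvate dehydrogenase and so holds pyruvate back from the citrate cycle, read 270, 357, 294 and 303 in WT and 1087, 939, 1153 and 1016 in the knockdown clone (1.73 ± 0.11, adjusted p = 2.90e-10). The enolase Eno2 rose by 1.25 ± 0.08 and the hexokinase Hk1 by 1.08 ± 0.14. The bright genes of the pathway's trunk rose little, Pkm by 0.20 and Pgk1 by 0.22, values named after they were seen.

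Of 17 genes of serine, one-carbon, proline and aspartate synthesis 10 were lower and 0 were higher, with a median of -0.48. Shmt2, the mitochondrial enzyme that splits serine into glycine and a one-carbon unit, read 1494, 1468, 1563 and 1487 in WT and 588, 616, 550 and 590 in the knockdown clone (-1.34 ± 0.08, adjusted p = 2.33e-10). Ass1, of arginine synthesis, fell by 1.01 ± 0.14 and Ahcy, which hydrolyses S-adenosylhomocysteine, by 0.94 ± 0.13. Of the 17 genes 4 lie on chromosomes 12, 17 or 19, whose genes were lower as a whole, and with each chromosome centred 10 were lower and 2 higher. Without U17_KD replicate 2 or U17_OE replicate 3, 1 gene was higher.

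Nucleotide synthesis and salvage was lower in 16 of 39 and higher in 5. Rrm2, the inducible subunit of ribonucleotide reductase, went from 1620 ± 103 to 742 ± 73.6 (-1.12 ± 0.12), Cad, the first enzyme of pyrimidine synthesis, fell by 0.75 ± 0.16, and the purine enzyme Gart fell by 0.72 ± 0.11. The rises included enzymes that act on finished purines, Ampd3 (0.92 ± 0.20) and Xdh (0.82 ± 0.12). The list of branched-chain and other amino acid breakdown and polyamines stayed close to the shares over all genes. In it 4 of 21 were higher and 5 lower, with a median of 0.12. Odc1, the enzyme that starts polyamine synthesis, fell from 7561 ± 475 to 3289 ± 77.7 (-1.20 ± 0.10), and the spermidine synthase Srm by 0.68 ± 0.12, while Smox, which oxidises spermine, rose by 0.74 ± 0.10.

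**Figure D4:**
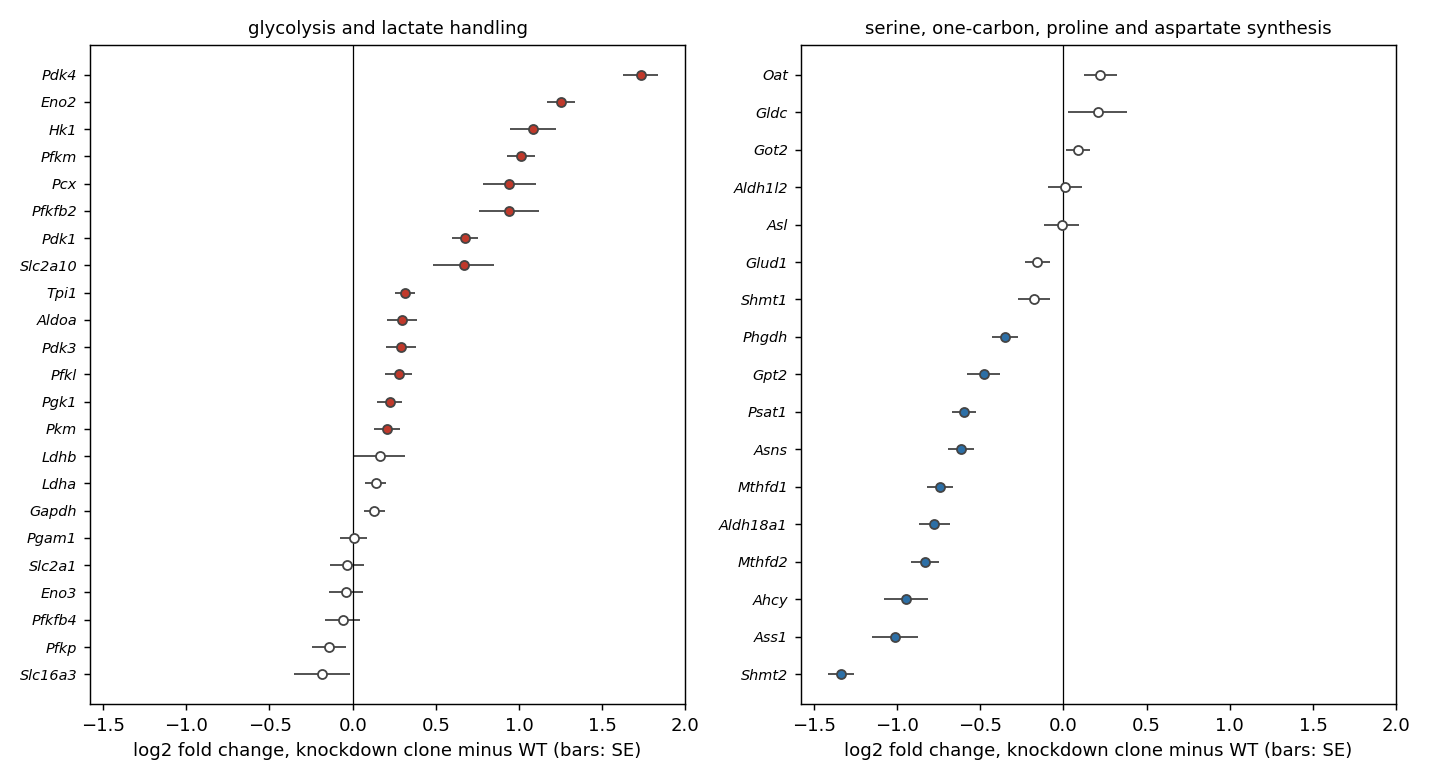
Log2 fold change of the knockdown clone against WT, with its standard error, for every measured gene of glycolysis and lactate handling (left, 23 genes) and of serine, one-carbon, proline and aspartate synthesis (right, 17 genes); red marks called rises, blue called falls and white genes not called. The left panel has 14 red and 0 blue points and the right panel 10 blue and 0 red points.

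Glutathione, aldehyde and xenobiotic enzymes were higher in 17 of 41 and lower in 9. The microsomal glutathione transferases Mgst1 (1.90 ± 0.09) and Mgst2 (1.72 ± 0.13) rose, whereas Gclm, which limits glutathione synthesis (-0.95 ± 0.08), and the haem oxygenase Hmox1 (-1.03 ± 0.11) fell. Slc7a11, the importer of cystine for glutathione, fell by 2.26 ± 0.16 at the probe used (1 of 4 knockdown arrays detected), but its 2 other tested probes were not called. Hmox1 and Gclm fell in U17_OE as well, by 0.94 and 0.66.

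Of the enzymes that build and trim heparan, chondroitin and hyaluronan chains 8 of 35 were higher and 7 lower. The related sulfatases went in opposite directions, Sulf2 up by 1.61 ± 0.16 and Sulf1 down by 1.45 ± 0.17 (2 of 4 knockdown arrays detected). The hyaluronan synthase transcript Has2 fell below detection, Hyal1, whose enzyme degrades hyaluronan in lysosomes, fell by 1.39 ± 0.17, and Cemip, whose protein binds hyaluronan and acts in its breakdown, rose by 1.24 ± 0.12. Solute carriers of amino acids, nucleosides and organic ions were lower in 12 of 46 and higher in 7. The nucleoside carrier Slc29a1 fell by 1.66 ± 0.10. Slc38a2, a carrier of neutral amino acids, rose by 0.91 ± 0.07, while its 2 other tested probes were not called.

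Prostaglandin, retinoid and steroid enzymes were higher in 10 of 26 and lower in 3, with Ephx1 up by 1.37 ± 0.08 and the prostacyclin synthase Ptgis down by 0.95 ± 0.07. The falls numbered 1 without WT replicate 3 or U17_KD replicate 1, 2 or 3. Enzymes of glycerolipids, phospholipids and sphingolipids were higher in 14 of 51 and lower in 10, with Pcyt2 up by 1.01 ± 0.11 and Sgms2 down by 1.30 ± 0.15 (3 of 4 knockdown arrays detected). Fatty acid oxidation was higher in 10 of 35 and lower in 5, led by Acaa2 (0.91 ± 0.09). The citrate cycle was higher in 6 of 21 and lower in 2. The pentose phosphate, hexosamine and glycogen list was higher in 7 of 21 and lower in 4, Renbp among these.

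The changes were unevenly spread over the chromosomes. This was noticed in the data and then set out for all 20 chromosomes carrying at least 1 measured gene, with 9085 genes placed by RefSeq (GRCm38.p6). On each array the median difference from the WT mean was taken over the genes of a chromosome, relative to all genes of that array. Chromosome 12 lay at -0.32 to -0.25 on the 4 knockdown arrays and at -0.02 to 0.02 on the WT arrays. Chromosome 17 lay at -0.29 to -0.25 against -0.03 to 0.03, and chromosome 19 at -0.28 to -0.25 against -0.01 to 0.02. Above 0 lay chromosome 15, at 0.25 to 0.29 against -0.01 to 0.02, and chromosome 1, at 0.20 to 0.24 against -0.01 to 0.01. Knockdown and WT arrays did not overlap on any of these 5 chromosomes. With values centred over the 8 arrays the groups were apart on 14 of the 20 chromosomes, for most of them with a far smaller shift, such as 0.02 on chromosome 2 and -0.03 on chromosome 11. No test is given, since the pattern was found in these same arrays.

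On chromosomes 12, 17 and 19 together 47.3% of the 1113 measured genes were lower and 7.73% higher. On chromosomes 1 and 15, 39.9% of 852 genes were higher and 7.86% lower. The other 15 chromosomes, with 7120 genes, had 19.6% higher and 17.8% lower. Thus 12.2% of the genes, on chromosomes 12, 17 and 19, held 28.3% of all genes called lower, and 47 of the 181 that fell at least 2-fold. Within chromosome 17 the first 119 genes in the order of their positions had a median of -0.58, with 70.6% lower, against -0.25 to -0.20 in the 3 later blocks of like size. On chromosome 7 the first of 4 such blocks had a median of -0.23, with 42.2% lower, and the last -0.02. On chromosome 5 the last 2 blocks stood at 0.19 and 0.18 and the first at 0.01. Of the 12 leading rises 3 lie on chromosomes 1 or 15 and 0 on chromosomes 12, 17 or 19. Of the 12 leading falls 2 lie on chromosomes 12, 17 or 19, Cdsn and Dusp5, and 2 on chromosomes 1 or 15, Cpne8 and Rgs16, against the direction of those chromosomes. In U17_OE chromosome 12 also lay low, at -0.30 to -0.24, whereas chromosomes 17 and 19 lay at -0.01 to 0.06.

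The number of copies of these chromosomes was not measured here, and its part in the result was not tested. When each chromosome was centred on each array, 1712 genes were higher and 1723 lower, and 300 and 165 at least 2-fold. The counts of the main lists stayed near those above, with 12 of 16 collagens higher and 1 lower, 14 of 23 genes of glycolysis higher and 0 lower, and 19 of 39 genes of nucleotide synthesis lower.

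**Figure D5:**
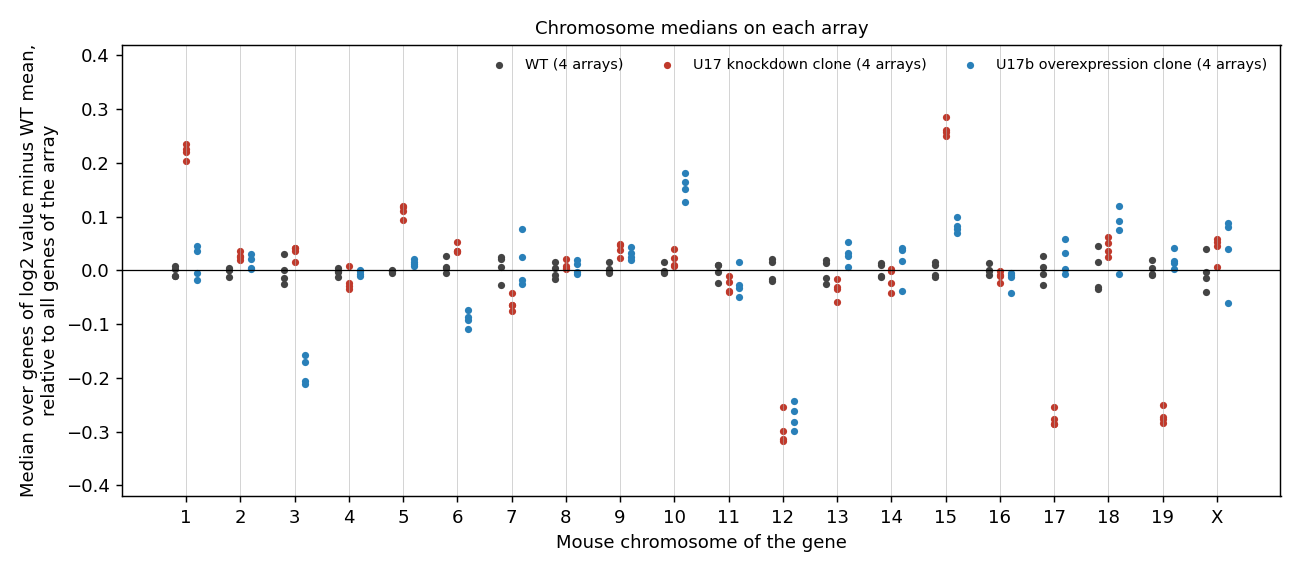
Median over the measured genes of each chromosome of the log2 value minus the WT mean (for a WT array, the mean of the other WT arrays), relative to all genes of the array, for each array of WT, the knockdown clone and U17_OE. On chromosomes 12, 17 and 19 the knockdown arrays lie between -0.32 and -0.25 and on chromosomes 1 and 15 between 0.20 and 0.29, while all WT arrays lie within 0.05 of 0.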

How the data were processed

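RNA of 12 cultures was measured on 1 Illumina bead array each. The authors deposited a normalized table of probe intensity on a linear scale with background subtracted. The submitters' processing notes name GenomeStudio 2010 and the sources used here do not give the normalization between arrays. A further deposited table gives, per the file headers, unnormalized intensity with a detection p-value for each probe. Of its 48 columns the 8 of WT were used, and 40 were not because the array names in them occur in no label. It gave the background mean and SD (0.492 and 15.8) for the normexp correction of all arrays, which was followed by log2 after adding 16, and the detection level.

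Probes detected on at least 4 arrays entered a limma fit (version 3.58.1, R 4.3.3) in a model of 3 groups with a mean-variance trend and 9 residual degrees of freedom. P-values are two-sided, adjusted by Benjamini-Hochberg over the tested probes with a threshold of 0.05. A fold change is on the log2(corrected value + 16) scale, which understates changes of dim genes. A gene takes its brightest tested probe. Probes were named by the platform annotation (34885 with 1 symbol, 18 with several, 10378 not listed). The fit was tested on simulated data.

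Members and lists were chosen with earlier results of these data known, so lists are described by counts and medians with no test. Named are the 12 largest rises and falls among called genes detected on all 8 arrays, the 12 largest in each direction among genes switched on or off, and up to 3 called rises and falls of each list, with Rcc1 and Mgarp. Other genes were named after their values were seen. No 2 arrays hold identical values (0 pairs). Alternatives were other background corrections, offsets, filters, normalization, models, and leaving out each WT and knockdown array and U17_OE replicate 3.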

Additional observations from a re-analysis of the deposited data

Results flagged for a closer look

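Among 231 named genes, the 4 WT and the 4 knockdown arrays were each examined for 1 array far from the rest, and 19 of the 462 groups held one. Chance alone flags about 1 group in 20. Values are normalized intensities, each with the nearest other array of its group. Single knockdown arrays lay above their group for Slc1a3 (8624 against 7833, replicate 3), for Gpr35 (77.97 against 63.95, replicate 4), for Ier3 (6908 against 5848, replicate 3), for Taldo1 (8867 against 8115, replicate 3), for Sulf2 (198.7 against 154.9, replicate 4) and for Slc7a11 (45.41 against 28.2, replicate 1). Single knockdown arrays lay below their group for Ccl7 (5293 against 6116, replicate 3), for Pdgfrb (197.2 against 305.2, replicate 2), for Dlx1 (265.8 against 289.3, replicate 2), for Mxd4 (1683 against 1762, replicate 4) and for Rcc1 (362.2 against 380.2, replicate 4). In WT the array of replicate 2 lay above its group for Ltbp4 (244.1 against 203.7), for Mertk (101 against 77.47), for Itgb7 (687 against 582.4) and for P2rx4 (619.9 against 533.2). WT arrays lay below their group, that of replicate 2 unless another is named, for Sdhc (4831 against 5131), for Lpl (578.7 against 754.4), for Has2 (95.68 against 135.3) and for Rgs3 (406 against 473.2, replicate 3). WT replicate 2 accounts for 7 of the 8 WT arrays among them, and leaving it out changed the call of 0 of these genes.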

How the results depend on the processing

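With 4 arrays a group, the spread between arrays limits the precision, and dim probes have only a bound. Of the 1823 higher and 1862 lower genes, the counts stayed within 1.5 times of these under every alternative run: 1596 to 1666 higher and 1622 to 1711 lower when 1 of the 8 arrays was left out, 2176 and 2239 with the 8 arrays alone, and 2135 and 2209 without U17_OE replicate 3. That array and the centring of each chromosome were chosen as alternatives after seeing the data. Left-out arrays gave 2668 to 2845 probes higher and 2714 to 2866 lower, 314 to 326 and 177 to 186 genes changed at least 2-fold, and 96 to 106 genes switched on and 69 to 76 off. An offset of 50 in place of 16 left 207 genes higher at least 2-fold (318 before), since it shrinks the folds of dim genes. The 93 genes switched on and 63 off became 54 and 41 with the detection level multiplied by 0.667, 214 and 187 with at least 3 against at most 1 array detected, and 45 and 33 when every probe of the gene had to qualify. Without the filter on detection the medians of lists shrank, that of collagens to 0.13, that of glycolysis to 0.16 and that of serine and one-carbon synthesis to -0.06, because undetected genes enter. Of 231 named genes 0 changed direction under any alternative, and 0 to 6 lost their call under each. Deviations of same-numbered WT and knockdown arrays correlated at -0.0617 to 0.00454, and those of differently numbered arrays at -0.152 to 0.229. No sign of pairing by number was seen, though so few arrays cannot exclude it. With the replicate number as a block, 1659 genes were higher and 1678 lower, and 3 named genes lost their call.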
